A study of Mus musculus with 2 samples.

Results

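The AP-1 and immediate early genes were followed in B-cell acute lymphoblastic leukaemia (B-ALL) of the mouse, a cancer of B-cell precursors. The members are 10 named genes: Jun, Junb, Jund, Fos, Fosb, Fosl2, Atf3, Egr1, Dusp1 and Ier2. They were found through the RefSeq accession of each non-control array probe, which gave 11 probes in 20 spots. The arrays hold 20618 genes with a symbol on 39085 probes. All 10 members had a probe well above background on both arrays, as did 51% of all genes with a probe. SoNar is a fluorescent sensor of the cytosolic NADH/NAD+ ratio. Bone marrow B-ALL cells (age label 8 weeks) were sorted by the ratio of its fluorescence at a pair of wavelengths into SoNar-high and SoNar-low cells, and RNA of each population went onto 1 single-colour Agilent array. Titles of the samples name N-myc (high or low), while sorting, source and population labels all name the sensor, so the groups follow the sensor. Genotype, strain, number of mice, pooling and the way the leukaemia was made were not given in the sources used here.

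AP-1 is a transcription factor made of pairs of leucine zipper proteins. A Jun protein pairs with another Jun, a Fos or an ATF protein, and the pair binds short palindromes in promoters and enhancers. Immediate early genes are transcribed within minutes of a growth factor, antigen receptor or stress signal, without new protein synthesis, and their mRNAs are mostly short-lived. In B-lineage cells they respond to antigen receptor and cytokine signals, and they are also known to rise while tissue is dissociated and sorted.

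There was 1 array for each population, so differences are given with no replicate check and no test, and their precision is limited by that number. The arrays were scanned in separate sessions, and scan and population cannot be told apart. In RNA of sorted cells, fewer cells of a type and less RNA per cell cannot be told apart either. Of 43020 non-control spots, 44.8% for SoNar-high and 72.9% for SoNar-low were called well above background by the scanner software. The lowest such signal was 46.4 intensity units on the SoNar-high array and 19.7 units on the SoNar-low array. The B-lineage label could be checked on 13 markers. Of these 10 were well above background on both arrays, while Igll1, Rag1 and Rag2 were not well above background on either.

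As a group the 10 genes stood with the median gene, and within the group Jun and Jund stood apart from Junb. A difference is SoNar-high minus SoNar-low in log2 units, after each array's signal was divided by its 75th percentile (409 units on the SoNar-high and 470 units on the SoNar-low array). The median difference of the members was 0.24, and that of the 10521 genes measured on both arrays was 0.22. Above 0 lay 7 of the 10 members, against 66.9% of all genes, and above the median gene lay 5. Under 13 other ways of processing, the members' median ran from -0.03 to 0.61 relative to the median gene. It was 0.18 with quantile normalization, 0.20 in the series matrix, and 0.61 over the 3 members among the brighter 50% of probes. Past a limit of 2-fold, 1 member, Jund, was higher on the SoNar-high array and 0 were lower. The shares of all genes past those limits were 2.4% and 4.39%. At a limit of 1.5-fold 3 members were higher (Jun, Jund and Egr1) and 0 lower, against 20.4% and 10.2% of all genes.

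**Figure D1:**
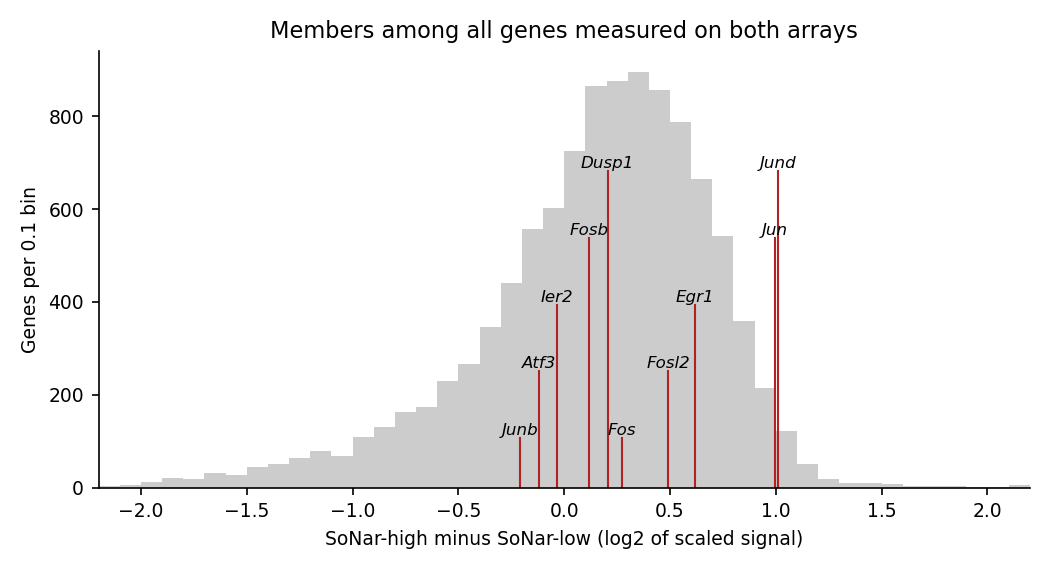
Grey bars count the 10521 genes measured on both arrays per bin of the SoNar-high minus SoNar-low difference (log2 of scaled signal, 41 genes beyond the axis ends not drawn), and each red line marks 1 member at its difference, with heights chosen only to separate the names. Jun and Jund lie at 0.997 and 1.01, beyond most genes, and the other 8 members lie between -0.21 and 0.62.

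The Jun proteins can pair among themselves and are the usual partners of the Fos proteins. Jun, the founding member and a target of JNK kinases, had a signal of 1766 units on the SoNar-high array, against 1018 units on the SoNar-low array. The scanner software gave these spots errors of 177 units on the SoNar-high and 102 units on the SoNar-low array. The difference of Jun was 0.997 (scanner error 0.20), a 1.996-fold difference that falls just under the 2-fold limit, and 257 of the 10521 genes had a higher one.

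Jund encodes the Jun protein that is present in resting cells and is the least inducible of the family. Its signal was 25853 units on the SoNar-high and 14736 units on the SoNar-low array. The difference was 1.01 (scanner error 0.20), or 2.02-fold, with 232 genes higher. Jund and Jun thus lay on either side of the limit by less than their scanner error, and the call of Jund carries no more weight than its absence for Jun.

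Junb encodes a weaker transactivator that can oppose Jun at some promoters. It had 91.3 units on the SoNar-high and 121 units on the SoNar-low array. Its difference was -0.21 (scanner error 0.28), the lowest of the 10 members (Fosb was lowest with quantile normalization and in the series matrix). It lay within its scanner error of 0. The sign turned in 4 of 12 alternatives, with 0.015 under normexp background correction, 0.36 under median scaling, 0.17 under quantile normalization and 0.18 in the series matrix. The SoNar-high signal was 1.97 times the lowest signal called above background there, so this probe was dim. The difference of Jun exceeded that of Junb by 1.21 (scanner error 0.34), and that of Jund exceeded it by 1.22 (0.34). A contrast of this kind does not move with a scaling that shifts all probes alike. A change of background filter, of probe choice or of outlier spots did not move it either. Of the 12 alternatives that measured Junb, only normexp, loess, quantile normalization and the series matrix changed it, and each lowered it. There it ran from 0.56 to 0.92 for Jun and from 0.70 to 0.97 for Jund. The main values stand above these ranges. Loess gave 0.76 for Jun and 0.87 for Jund, and quantile normalization 0.61 and 0.72 in the same order. Jun and Jund were bright and Junb dim. The median gene lay at 0.39 among the brighter 50% of probes, against 0.22 in the main processing. The part of brightness in the contrast was not tested.

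The promoters of Jun and Jund, the highest members, are printed for their motif content. They are the 250 bases before the annotated start in RefSeq's table for GRCm38.p6, 5′ to 3′ on the gene's strand, with matches to 8 motifs in capitals. The Jun promoter (chr4:95052223-95052472, minus strand) holds a variant AP-1 site, TGACATCA, 45 to 38 bases before the start, and the MEF2 site CTATTTTTA, 33 to 25 bases before it. The Jund promoter (chr8:70697489-70697738, plus strand) holds none of the 8 motifs in this window.
Jun: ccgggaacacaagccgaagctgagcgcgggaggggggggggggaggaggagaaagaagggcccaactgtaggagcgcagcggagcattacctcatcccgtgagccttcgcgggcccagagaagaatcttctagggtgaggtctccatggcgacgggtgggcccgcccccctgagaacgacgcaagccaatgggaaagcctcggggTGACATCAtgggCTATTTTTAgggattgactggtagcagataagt
Jund: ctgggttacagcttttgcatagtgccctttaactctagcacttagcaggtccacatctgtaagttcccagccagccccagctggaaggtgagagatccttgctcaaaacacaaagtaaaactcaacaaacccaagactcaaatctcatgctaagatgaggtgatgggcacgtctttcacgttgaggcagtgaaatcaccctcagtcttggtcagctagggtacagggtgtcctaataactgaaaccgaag
Of 32851 promoters of this length in the table, 2.93% hold TGACATCA and 0.454% hold CTATTTTTA on either strand. The Jun promoter is 61.2% G and C and the Jund promoter 47.6%.

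**Figure D2:**
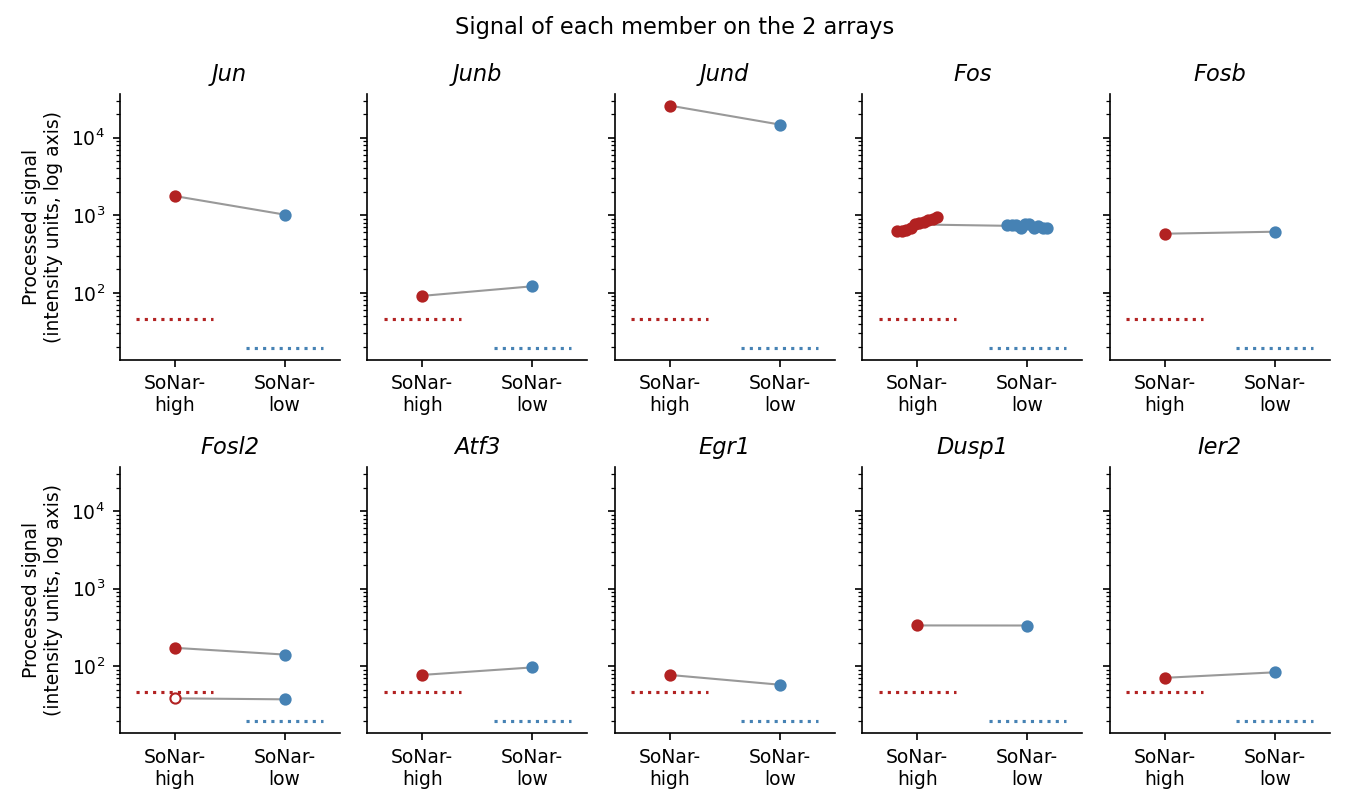
Each panel plots the processed signal of 1 member (intensity units, log axis) on the SoNar-high array (red) and the SoNar-low array (blue), with a point per spot, a line joining the means of a probe, and dotted lines at the lowest signal well above background on each array. An open point is not well above background, and panels are to be read within a gene, since probes differ in sensitivity; Jun and Jund step down from SoNar-high to SoNar-low, while Fos, with 10 spots sorted by SoNar-high signal, overlaps.

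The Fos proteins do not pair among themselves and need a Jun or related partner. Fos, the classic marker of recent stimulation, is the best measured member, since its probe was printed as 10 spots on each array. The lowest, median and highest spots were 621, 783 and 956 units on the SoNar-high array, against 677, 734 and 773 units on the SoNar-low array. The 2 sets of spots overlapped, and the SoNar-low spots all lay within the range of the SoNar-high ones. Mean spot signals were 769 ± 119 units on the SoNar-high and 724 ± 36.4 units on the SoNar-low array (SD over 10 spots of 1 array each, which covers the slide and no sort or animal).

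After scaling, the difference of Fos was 0.27 (standard error over spots 0.07), 0.05 above the median gene. Spot by spot, at the same place on both arrays, scaled differences ran from -0.08 to 0.70, with 8 above 0 and 2 below. A single spot of this probe could thus have given a value anywhere in that range, and of the other members 8 had 1 spot in all. Over 197 probes printed as 10 spots and measured on both arrays, a difference between 1 spot of each array had a median SD of 0.15. Jun exceeded Fos by 0.72 (scanner error 0.21) and Jund exceeded it by 0.74 (0.21).

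Fosb encodes a Fos protein with a truncated splice form that accumulates under repeated stimulation. It had 578 units on the SoNar-high and 613 units on the SoNar-low array, a difference of 0.12 (scanner error 0.21) after scaling. Fosl2, also called Fra-2, encodes a Fos protein without the strong transactivation domain of Fos. Its brighter probe had 173 units on the SoNar-high and 142 units on the SoNar-low array, a difference of 0.49 (scanner error 0.23). The second Fosl2 probe failed the background call of the SoNar-high array (38.6 units, against 37.5 units on the SoNar-low array) and read 0.24, in the same direction. Relative to the median gene, Fosb lay at -0.11 and Fosl2 at 0.27.

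Atf3 encodes a stress-induced ATF protein that acts mostly as a repressor. It was dim, with 77.5 units on the SoNar-high and 96.8 units on the SoNar-low array, and its difference was -0.12 (scanner error 0.33). Its sign turned in the same 4 of 12 alternatives, with 0.27 under normexp, 0.45 under median scaling, 0.31 under quantile normalization and 0.35 in the series matrix.

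Egr1, Dusp1 and Ier2 are immediate early genes that do not encode AP-1 subunits. Egr1 encodes a zinc finger factor induced through the ERK pathway. It had 77.4 units on the SoNar-high and 57.9 units on the SoNar-low array. Its difference was 0.62 (scanner error 0.29), or 1.54-fold, next after Jun among the members, and 1892 genes lay higher. Its SoNar-high signal was 1.67 times that array's lowest signal above background. With quantile normalization Egr1 lay at 1.101 and in the series matrix at 1.27, where it was the highest member and the 1 member past 2-fold.

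Dusp1 encodes a nuclear phosphatase that switches MAP kinases off and so closes the loop that induces these genes. Its signals were 336 units on the SoNar-high and 336 units on the SoNar-low array, and its scaled difference of 0.21 (scanner error 0.21) was the one nearest to the median gene. Ier2 encodes a small nuclear protein of the early response. It had 71.1 units on the SoNar-high and 83.7 units on the SoNar-low array, a difference of -0.03 (scanner error 0.29) that lay above 0 in the same 4 alternatives as Junb, at 0.13 to 0.53. Both lay below the median gene, by 0.02 for Dusp1 and by 0.26 for Ier2.

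The promoters of Fos and Dusp1, which lay near the median gene, are shown because they carry cAMP response elements (CRE), which CREB and ATF factors can bind. The Fos promoter (chr12:85473640-85473889, plus strand) holds the CRE core TGACGT 66 to 61 bases before the start and the TATA box TATAAA 33 to 28 bases before it. The Dusp1 promoter (chr17:26508473-26508722, minus strand) holds the full CRE TGACGTCA, 143 to 136 bases before the start, and a second core 191 to 186 bases before it.
Fos: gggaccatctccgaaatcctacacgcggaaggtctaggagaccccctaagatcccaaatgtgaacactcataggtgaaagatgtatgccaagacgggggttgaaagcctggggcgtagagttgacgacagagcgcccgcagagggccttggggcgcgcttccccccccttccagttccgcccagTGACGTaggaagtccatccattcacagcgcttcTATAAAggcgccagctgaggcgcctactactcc
Dusp1: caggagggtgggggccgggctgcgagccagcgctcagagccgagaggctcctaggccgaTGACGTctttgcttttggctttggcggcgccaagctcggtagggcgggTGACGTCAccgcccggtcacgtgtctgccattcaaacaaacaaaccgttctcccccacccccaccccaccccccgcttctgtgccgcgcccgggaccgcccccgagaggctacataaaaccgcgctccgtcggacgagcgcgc
The core, which every full CRE contains, was found in 3 of the 8 members in the table (Atf3, Fos and Dusp1) and in 6.47% of all promoters of this length, and the full CRE in 1.55%. The AP-1 site TGACTCA was in 0 of the 8 and in 4.46% of all. The CArG box, which serum response factor binds, was in 0 of the 8 and in 1.47%. Egr1 and Ier2 were not among these 8, so their promoters were not searched. The EGR site GCGGGGGCG was in the promoters of Fosb and Fosl2 and in 2.57% of all. All motifs were searched on both strands. A match is a description of letters, not a site of binding, and no match says only that these letters are not in this window.

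**Figure D3:**
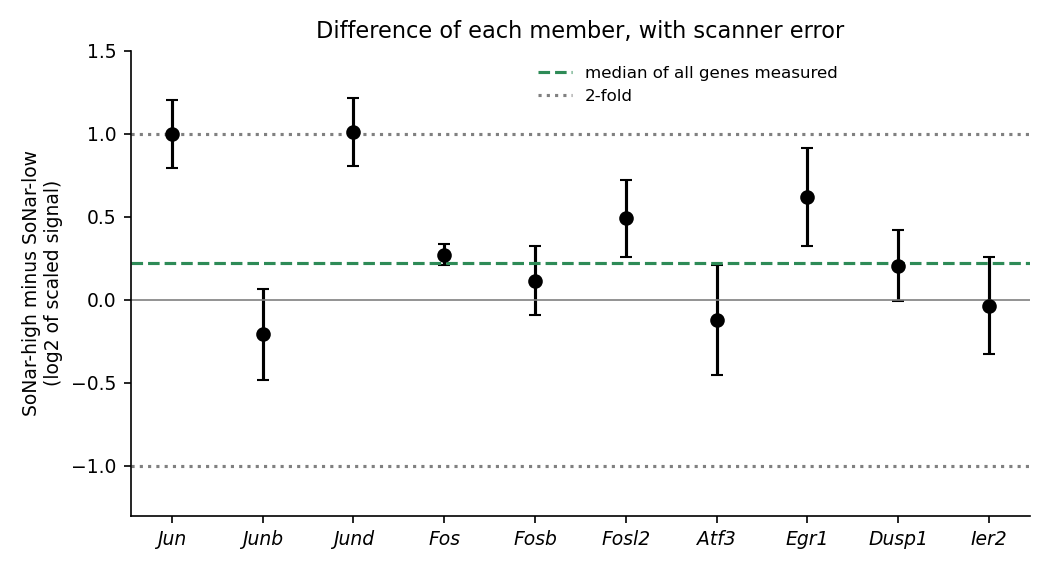
Points give the SoNar-high minus SoNar-low difference of each member (log2 of scaled signal), bars the scanner software's error of that difference (1 SE), the dashed line the median of all genes measured (0.22) and dotted lines 2-fold. Jun and Jund sit at the 2-fold line, Egr1 and Fosl2 between it and the median gene, and Junb, Atf3 and Ier2 below 0, though each lay above 0 in 4 of 12 alternatives.

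Other genes of the same response were set beside the members in 6 lists. Of 12 other AP-1 leucine zipper genes 6 were measured, with 0 past 2-fold either way and a median of 0.14. They ran from Jdp2, a Jun-binding repressor (0.51; 782 units on the SoNar-high and 631 units on the SoNar-low array), and Mafk (0.32) to Batf, a lymphocyte AP-1 factor (-0.07). Fosl1 passed the background call only on the SoNar-low array, and Batf2, Maf and Maff on neither.

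The list of 30 other immediate early genes stood highest of the 6 in the main processing, with a median of 0.47 over 17 measured genes, 13 of them above the median gene. That median leaves out 8 genes that passed the background call only on the SoNar-low array and 5 that passed on neither. Only on the SoNar-high array passed 0 genes of any of the 6 lists. Among the brighter 50% of probes the median gene lay at 0.39, and the part of brightness in the list's median was not tested. Past 2-fold, 0 were higher and 1 was lower. Highest were the TGF-beta-inducible factor gene Klf10 (0.89; 2436 units on the SoNar-high and 1515 units on the SoNar-low array), the orphan nuclear receptor gene Nr4a1, a marker of antigen receptor signalling (0.88; 893 and 560 units in the same order), and the antiproliferative gene Btg1 (0.72). Lowest were the growth arrest gene Gadd45a (-1.11; 206 units on the SoNar-high and 512 units on the SoNar-low array), Npas4 (-0.16) and Gadd45b (0.06). Egr2 and Egr4, paralogs of Egr1, passed the background call on neither array, and Egr3 only on the SoNar-low array.

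Feedback regulators had a median of 0.36 over 13 of 23 genes, with 0 higher and 1 lower past 2-fold. Rgs2, which dampens G protein signalling (0.94), Zfp36l1, which promotes decay of AU-rich mRNAs (0.92), and Dusp2, a MAP kinase phosphatase of lymphocytes (0.90; 7004 units on the SoNar-high and 4316 units on the SoNar-low array), were highest. The receptor signalling antagonist gene Spry1 (-1.16; 357 units on the SoNar-high and 917 units on the SoNar-low array), Socs3 (-0.17) and the NF-kappaB inhibitor gene Nfkbia (-0.07) were lowest. Dusp1, at 0.21, thus lay below Dusp2 by 0.69.

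MAP kinases and the factors they act on had a median of 0.18 over 21 of 22 genes, and 0 were past 2-fold. The JNK gene Mapk8 (0.61, with 2 probes at 0.03 and 1.18) and Srf, which encodes serum response factor (0.60, 2 probes at 0.59 and 0.61), were highest. Lowest were the JNK kinase gene Map2k4 (-0.66, 2 probes at -0.69 and -0.63), Elk4 (-0.25) and the ERK1 gene Mapk3 (-0.21). Probes of the last 2 genes differed in sign, with 3 from -0.62 to 0.13 for Elk4 and 2 at -0.57 and 0.16 for Mapk3. Known AP-1 targets had a median of 0.22 over 9 of 18 genes. The cyclin D1 gene Ccnd1 was at least 2-fold higher (1.01, with 5538 units on the SoNar-high and 3159 units on the SoNar-low array). It passed the limit by no more than Jund, so shifts of all probes that cost Jund its call cost Ccnd1 its call too. The haem oxygenase gene Hmox1 was at least 2-fold lower (-1.11, with 101 units on the SoNar-high and 251 units on the SoNar-low array). Its 2 probes read -1.29 and -0.94. Between Ccnd1 and Hmox1 lay Lmna (0.88), the polyamine enzyme gene Odc1 (0.73), Cd44 (-0.25, 4 probes from -0.63 to 0.13) and Plaur (-0.45).

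Heat shock and metallothionein genes that rise with immediate early genes during tissue dissociation had a median of 0.32 over 13 of 16 genes, with 0 past 2-fold. Mt2 (0.94), Dnajb1 (0.74) and Mt1 (0.63) were highest, and Dnajb4 (-0.56), Hspa8 (-0.39) and Hspd1 (-0.12) lowest. Hspb1 passed the background call only on the SoNar-low array, and was lower on the SoNar-high array by at least 3.22-fold. The members ran from -0.21 (Junb) to 1.01 (Jund). Jun lay at 0.997, Egr1 at 0.62, Fosl2 at 0.49 and Fos at 0.27. Below these were Dusp1 at 0.21, Fosb at 0.12, Ier2 at -0.03 and Atf3 at -0.12.

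**Figure D4:**
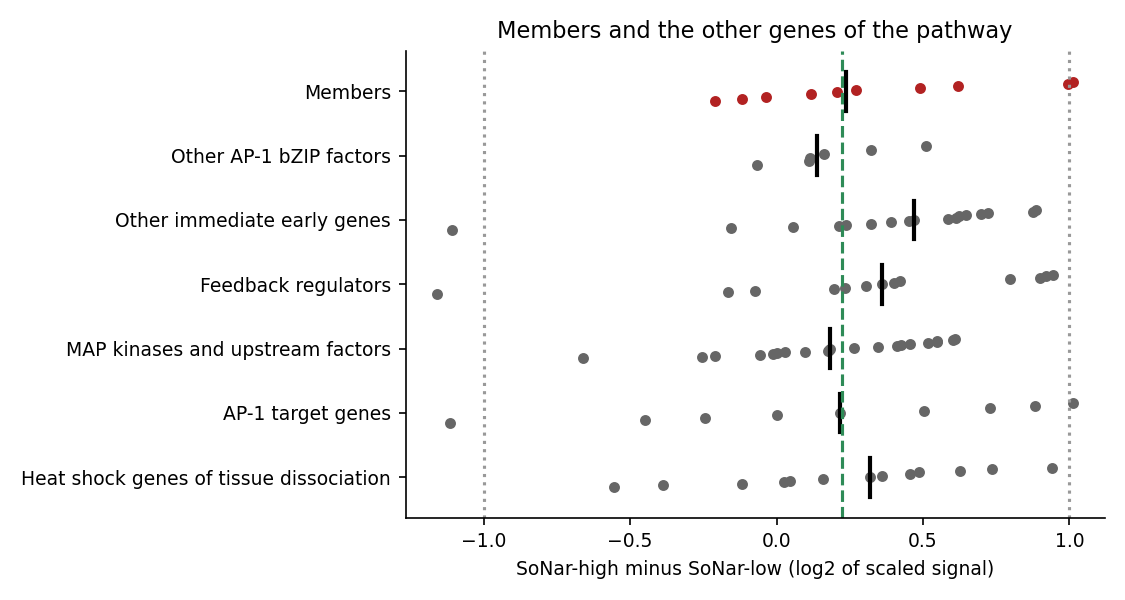
Each point is 1 gene measured on both arrays, placed by its SoNar-high minus SoNar-low difference (log2 of scaled signal), in the members (red) and the 6 lists (grey), with short black bars at list medians, a dashed line at the median of all genes and dotted lines at 2-fold. The members' median (0.24) lies beside the median gene, and that of the other immediate early genes (0.47) to its right.

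Markers of cells outside the B lineage differed between the arrays as well, and such cells also express AP-1 genes. Of 10 measured neutrophil markers 8 lay below 0 (median -0.39), with a summed scaled signal over all 11 with a probe of 42.7 for SoNar-high and 50.4 for SoNar-low, and Mmp8 failed the background call of the SoNar-high array. Monocyte markers lay below 0 in 3 of 4 (summed signal 1.13 for SoNar-high and 1.64 for SoNar-low) and T and NK cell markers in 4 of 4 (0.99 and 1.80 in the same order). Of 6 measured brain markers 5 lay above 0 (median 1.67, summed signal 3.24 for SoNar-high and 3.41 for SoNar-low). Snap25 (-1.04; 555 units on the SoNar-high and 1308 units on the SoNar-low array) went the other way and weighs most in that sum. Lung markers lay below 0 in 3 of 3 (summed signal 0.56 for SoNar-high and 3.68 for SoNar-low). Of all 8 lung markers, 5 passed the background call only on the SoNar-low array. The part of such RNA in the differences of Jun, Jund and the other members was not tested.

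**Figure D5:**
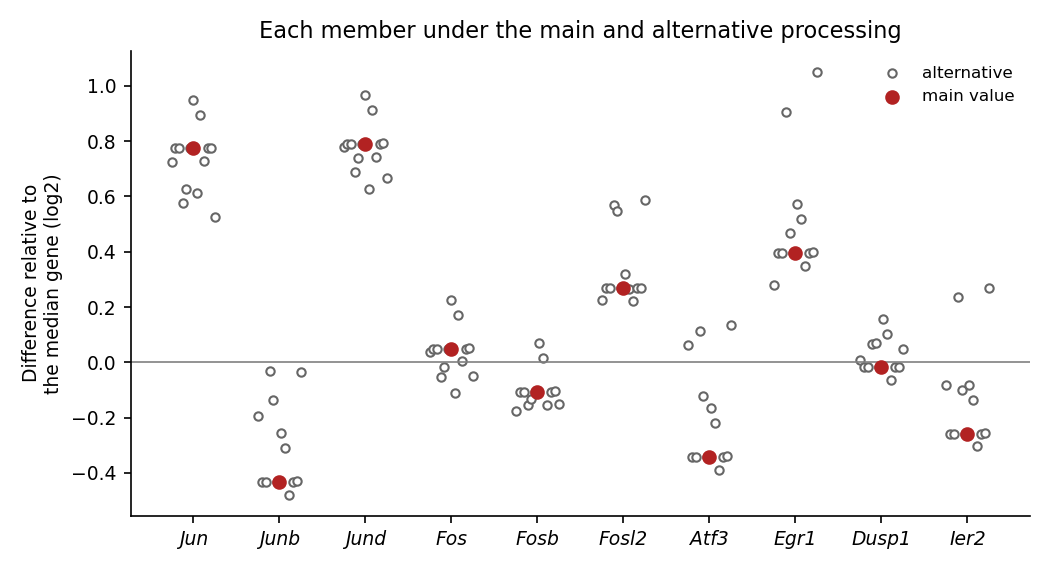
For each member the red point gives its difference relative to the median gene (log2) in the main processing, and open points give the same under each of the alternatives that measured it (13 for Jun, Jund and Fos, 12 for the others). Jun and Jund stay above 0.5 throughout, Junb stays below 0 on this relative scale, and Atf3 and Ier2 lie on both sides of it. Alternatives that shift all probes alike repeat the main value by construction.

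How far the order of the members held was read from 13 other ways of processing the same spots. Relative to the median gene of each, Jun ran from 0.53 to 0.95 and Jund from 0.63 to 0.97, and Egr1 (0.28 to 1.05) and Fosl2 (0.22 to 0.59) were above it in the 12 that measured them. Junb ran from -0.48 to -0.03 and was below it in 12 of 12. Fos, Fosb, Dusp1, Atf3 and Ier2 lay on both sides of the median gene. Centring, median scaling and both other percentile scalings shift all probes alike, so they repeat the main values on this relative scale. Other filters, probe choices and kept outlier spots moved mainly the median gene. Only normexp, loess, quantile normalization and the series matrix changed the members against each other, apart from Fosl2 when its dim probe was let in. The 2-fold call of Jund was lost with normexp, loess, centring on the median gene and 2 other percentile scalings, with values from 0.72 to 0.99, and also with quantile normalization (0.89) and the series matrix (0.88), where Egr1 was called in its place.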

How the data were processed

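The authors' scanner files, deposited as Agilent Feature Extraction output (version 11.0.1.1 per the file headers, 9.1 per the submitters' processing notes), give background-subtracted, detrended intensity values per spot, not scaled between arrays. RNA (1 µg) was labelled with Cy3, per the labels' protocols. The authors also deposited a series matrix of log2 values with a median of 5.90 on both arrays. All 10 members lay above 0 in that matrix, against 7 in the main processing. Junb, Atf3 and Ier2 turned sign, to 0.18, 0.35 and 0.49. Jun exceeded Junb by 0.56 in the matrix and by 1.21 in the main processing, so the matrix differs by more than a shift of all probes. Its normalization method is unknown. The deposited files also hold the scanner software's 0 or 1 flags and spot errors.

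Control spots and outlier spots (non-uniform and population outliers: 1 and 189 of SoNar-high, 350 and 156 of SoNar-low) were left out, and 0 spots were saturated. Spots of a probe were averaged as log2 signal minus the array's 75th percentile over probes. Accessions were matched without versions to symbols of GRCm38.p6, used for names (27115 of 39085 probes). A gene's difference averages the probes that passed the background call on both arrays. A call is a difference of at least 2-fold, with no p-value. Scanner error is the software's spot error carried to log2. It lay close to 10% of the signal at bright spots and is not a spread over replicates. A bound sets the bright value against the dim array's lowest signal above background, or the dim probe's own value where that is higher. Summed scaled signals add the levels of different genes, so bright probes weigh most in them. Elsewhere no gene's level was set against another's.

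Members and lists were chosen with earlier results of these data known. All members are named, and of each list the 3 highest, the 3 lowest and every gene past 2-fold, except that some genes of the lists are not reported here. Erythroid markers had a median of -1.02 over 4 measured genes, but a summed scaled signal over all 8 of 57.1 for SoNar-high and 32.8 for SoNar-low, since Hemgn (0.89; 22791 units for SoNar-high and 14153 units for SoNar-low) went the other way. Stroma markers had a median of -0.80 over 4 and sums of 1.47 for SoNar-high and 2.26 for SoNar-low. Analyses used Python 3.11.15, numpy 2.4.6, pandas 2.3.3, statsmodels 0.14.6, R 4.3.3 and limma 3.58.1.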

Additional observations from a re-analysis of the deposited data

How the results depend on the processing

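The median of the members (0.24) and the counts of 1 member at least 2-fold higher and 0 lower were recomputed under 13 alternatives, 1 of them (the percentile taken over spots) chosen after seeing the data. The median lay at 0.80 with median scaling, -0.057 with the percentile over probes measured on both arrays, 0.079 with loess, 0.016 when centred on the median gene, 0.42 in the series matrix, and 1.00 over the 3 members (Jun, Jund and Fos) among the brighter 50% of probes. Members at least 2-fold higher numbered 4 with median scaling and 0 with normexp, loess, centring and both other percentile scalings. At 1.5-fold 3 were higher and at 3-fold 0. None was 2-fold lower under any of them. The other alternatives moved the median by less than 0.15, the median SD of a difference between spots.

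Past 2-fold lay 253 higher and 462 lower genes of all measured (35.4% of calls higher). With median scaling the median gene lay at 0.79 and the counts were 3380 and 140 (96.0%). The percentile over probes measured on both arrays gave 61 and 853 (6.67%), quantile normalization 348 and 392 (47.0%), loess 118 and 530 (18.2%), normexp 72 and 241 (23.0%), centring 70 and 742 (8.62%), the series matrix 430 and 359 (54.5%), no filter on dim probes 1885 and 2542, the brighter probes 141 and 111 (56.0%), a cut 3 SD above the negative controls 286 and 1079 (21.0%), and the percentile over spots 177 and 513. The cause of these shifts was not tested. Dim members (Junb, Atf3, Egr1 and Ier2) lay within 1.53 to 1.97 times the lowest signal above background on the SoNar-high array. No paired analysis was possible because each population had 1 array.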
